A study of Mus musculus with 6 samples.

Results

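The alveolar macrophages of this lung data set are 51 cells among the 24474 cells with at least 500 expressed genes, of 26176 cell barcodes in all. Of these 51 cells, 18 came from mice given a PD-1 agonist and 33 from mice given an isotype antibody. A cell belonged to the set when it held at least 1 count of at least 3 of the 7 markers Krt79, Plet1, Car4, Marco, Siglecf, Ear1 and Fabp1. It also had to hold no count of Cd3e, Ncr1, Siglech or Csf3r and fewer than 2 counts of Cd79a. These genes chose the cells, so their levels are a description and not a finding.

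The mice carried a humanized PD-1 receptor, were 6 to 8 weeks old, and were treated with the PD-1 agonist or with the isotype antibody. Both treatments share the humanized receptor, so there is no group with the mouse receptor. The files' own treatment column calls the isotype tables untreated. Sex, the way airway disease was induced, the dose and the identity of the agonist were not given in the sources used here. Live CD45+ lung cells were sorted, tagged by cell hashing and profiled on the 10x Genomics platform, with 6 deposited tables, 3 for each treatment. The CD45+ sort bears on every share of cells given here.

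Alveolar macrophages live on the inner surface of the air sacs, where they clear surfactant lipid, inhaled particles and dying cells. In the mouse they depend on the growth factor GM-CSF, on TGF-beta and on the lipid-sensing transcription factor PPAR-gamma, and they are marked by the lectin Siglec-F and the integrin CD11c. They sit apart from the interstitial macrophages of the lung wall, which in the mouse carry complement C1q, and from monocytes that enter from blood. PD-1 is an inhibitory receptor known chiefly on T cells, and its ligand PD-L1, encoded by Cd274, is made by many macrophages.

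The 3 tables of a treatment were not separate samples. They shared 35.9% to 42.5% of their barcodes with one another, whereas tables of different treatments shared 0.0469% to 0.201%, so each treatment counts as 1 pool. With 1 pool a treatment there is no replicate check and no test of a difference between treatments. The 95% intervals below are exact for counting error only. On summed counts they leave out variation between the cells of a pool, also where a few cells hold most counts. No interval covers variation between mice. The tables held 6615, 6749 and 6668 records in the agonist group and 6481, 6438 and 6393 in the isotype group, with 21556545 to 25572101 and 24867171 to 29749815 counts a table. A sum over cells cannot tell fewer cells that carry a transcript from less RNA in each cell, so the number of cells with a count is given where it bears on a value.

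The alveolar macrophages were among the deeper cells. Their median total was 10570 counts with the agonist, from 1008 to 29490, and 10350 counts with the isotype, from 1365 to 20090. All other cells had medians of 2459 counts with the agonist and 2886 with the isotype. Mitochondrial genes took a median of 1.297% of the counts of an alveolar macrophage with the agonist and 1.348% with the isotype, and ribosomal protein genes 5.735% and 6.655%. The groups overlapped in each of these measures. With the agonist 13 cells were recorded in 1 table and 5 in 2 tables, and with the isotype 14 cells were in 1 table, 14 in 2 and 5 in 3. The other records of these barcodes held at least 3 markers in 5 of 5 cases with the agonist and 23 of 24 with the isotype. The whole rule, with its absent genes, was met by 3 of the 5 and 21 of the 24.

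Plet1, a surface protein of epithelial and some myeloid cells, was the marker found in most cells. It was detected in all 18 agonist cells and in 97.0% of isotype cells, against 0.879% and 0.533% of T cells, whose median totals were 3668 and 4185 counts. Krt79, a keratin, was detected in 83.3% of agonist cells and 78.8% of isotype cells, and Car4, a carbonic anhydrase, in 83.3% of agonist cells and 75.8% of isotype cells. Ear1, a ribonuclease of the eosinophil-associated family, was detected in 72.2% of agonist cells and 93.9% of isotype cells. Marco, a scavenger receptor for particles and bacteria, was detected in 44.4% with the agonist and 63.6% with the isotype. Siglecf, the sialic acid-binding lectin that alveolar macrophages share with eosinophils, was detected in 11.1% with the agonist and 36.4% with the isotype, against 0.251% and 0.533% of T cells and 5.02% and 6.48% of neutrophils. Fabp1, a fatty acid-binding protein, was detected in 16.7% with the agonist and 33.3% with the isotype.

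The cells differed widely in these markers. Per 10000 counts of a cell, Plet1 ran from 1.6 over a median of 7.71 to 79.8 in agonist cells and from 0 over 8.76 to 26.9 in isotype cells. Krt79 had medians of 5.47 with the agonist and 3.97 with the isotype, with highest values of 14.5 and 20.4. Car4 had medians of 2.85 and 3.97 and highest values of 29.6 and 64.5. Ear1 had medians of 1.29 in agonist cells and 4.63 in isotype cells, and the groups overlapped in every marker. The median number of markers was 4 in agonist cells and 5 in isotype cells, and 0 of 18 and 1 of 33 cells held all 7. The markers chose the cells, so these numbers describe the selection and are not a finding about the treatment.

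**Figure D1:**
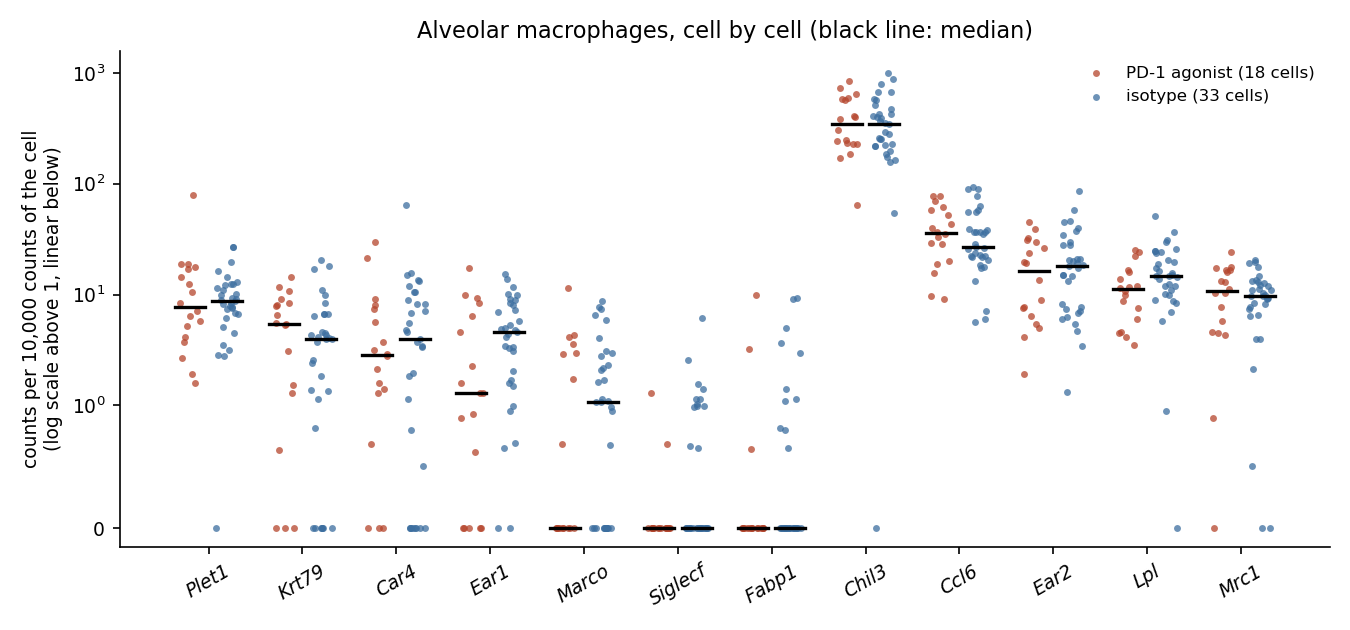
Counts per 10000 counts of the cell, on a scale that is logarithmic above 1 and linear below, for the 7 selection markers and 5 leading genes; each point is 1 alveolar macrophage, agonist cells left of isotype cells, and black lines are medians. Ear1 has medians of 1.29 in agonist cells and 4.63 in isotype cells, and Chil3 has 346 and 347.

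In summed counts, scaled to the effective library totals of the trimmed-mean method (TMM) and given as CPM, counts scaled to a fixed library total, the 2 abundant markers Plet1 and Krt79 had similar levels. Plet1 had 957 CPM with the agonist and 949 CPM with the isotype, and Krt79 had 533 CPM with the agonist and 467 with the isotype, a log2 ratio of 0.19 with an interval from -0.18 to 0.56. Marco had 184 CPM with the agonist and 188 with the isotype. Ear1 had 38 counts in agonist cells and 179 in isotype cells, which is 189 CPM with the agonist and 543 with the isotype and a log2 ratio of -1.52 (-2.06 to -1.01) that was -0.97 without agonist replicate 1, -0.89 in cells of 500 to 4000 expressed genes and -0.58 with each cell weighted equally. Siglecf had 3 counts with the agonist and 18 with the isotype, and Fabp1 5 with the agonist and 30 with the isotype, too few to be compared. Ear1 helped to choose the cells, so its ratio in them describes the chosen cells and is not a finding about the treatment. On library totals the ratio was -1.45 here, -1.59 in C1q macrophages, -1.38 in T cells and -1.03 in neutrophils. In Ly6c2 monocytes it was -0.48 and in B cells 0.39. These other classes held few counts of Ear1, such as 9 with the agonist and 36 with the isotype in C1q macrophages.

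Ear1 and Chil3, the leading gene below, belong to families of near copies, so their counts depend on how reads were assigned. In the GRCm38 annotation, the build that the submitters' processing notes call mm10, 73.65% of the 31-base words of Ear1 and 60.52% of those of Ear2 occur in another gene, and 44.8% of those of Chil3 do. The first 90 coding bases of Ear1 and Ear2, 5′ to 3′, and 90 coding bases of exon 3 of 11 of Chil3 and its neighbour Chil4 are shown because 2 bases of 90 tell the genes of each pair apart; capitals mark those bases. Ear1 lies at chr14:43819320-43819409 on the minus strand and Ear2 at chr14:44102887-44102976 on the plus strand, both in exon 2 of 2. Chil3 lies at chr3:106164202-106164291 and Chil4 at chr3:106214387-106214476, both on the minus strand. Over all coding bases of that exon, 192 of 202 are identical in Chil3 and Chil4. The coding parts of Ear1 and Ear2 have 465 and 468 bases, with 346 identical when counted position by position without alignment.
Ear1: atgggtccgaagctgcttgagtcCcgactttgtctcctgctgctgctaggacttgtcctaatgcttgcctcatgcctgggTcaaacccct
Ear2: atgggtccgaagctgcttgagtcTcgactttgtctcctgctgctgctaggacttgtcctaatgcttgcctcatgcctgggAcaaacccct
Chil3: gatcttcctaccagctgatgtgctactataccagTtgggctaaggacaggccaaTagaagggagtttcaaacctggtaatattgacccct
Chil4: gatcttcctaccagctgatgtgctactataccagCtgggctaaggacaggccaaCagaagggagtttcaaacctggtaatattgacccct

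Genes outside the rule described the same cells, although Ear2 among them is a near copy of the selection marker Ear1. Among the 137 genes with at least 200 counts in each treatment, the 15 with the highest level in alveolar macrophages relative to all other cells were led by Chil3. This gene encodes the chitinase-like lectin Ym1, a secreted product of mouse alveolar macrophages. On plain totals it stood at 36600 CPM in agonist cells and 36500 CPM in isotype cells, 31.2 and 29.5 times the level of all other cells. Cell by cell, Chil3 ran from 63.9 over a median of 346 to 845 counts per 10000 with the agonist and from 0 over 347 to 987 with the isotype. All 18 agonist cells and 32 of 33 isotype cells held it. So did 51.3% of agonist and 55.7% of isotype C1q macrophages and 47.7% and 51.2% of Ly6c2 monocytes, both classes defined below. The T cell shares were 12.7% with the agonist and 15.5% with the isotype.

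Ear2, another ribonuclease of the family, stood at 1640 CPM with the agonist and 2110 CPM with the isotype, 14.8 and 25.6 times the other cells. Its counts depend on how reads were assigned between near copies such as the selection marker Ear1, so they are not independent of the selection. Lpl, the lipoprotein lipase that frees fatty acids from triglyceride, stood at 1060 CPM with the agonist and 1660 with the isotype, 12.6 and 15.3 times. The mannose receptor Mrc1 stood at 1120 CPM with the agonist and 962 with the isotype, 13.6 and 12.9 times. The tetraspanin Cd9, the chemokine Ccl6, the lysosomal protease Ctsd and lysozyme (Lyz2) were 9.24, 5.27, 5.21 and 4.12 times higher than in other cells with the agonist and 10.5, 5.63, 5.2 and 4.37 times higher with the isotype. The list closed with the proteases Ctsc and Ctss and their inhibitor Cstb, the galectin Lgals3, the peroxiredoxin Prdx1, the oxidase subunit Cybb and the ferritin chain Fth1, at 2.58 to 4.46 times.

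The C1q macrophages of the same lungs, defined by at least 2 of C1qa, C1qb and C1qc, shared part of these genes. They numbered 380 cells with the agonist and 449 with the isotype. Of the 15 leading genes, 8 were over 2 times higher in alveolar than in C1q macrophages in both pools, and the other 7 (Ctsc, Lgals3, Prdx1, Ctss, Cybb, Fth1 and Cstb) were not. Of the 19 listed alveolar macrophage genes outside the selection that the tables hold, 17 were higher in alveolar macrophages in both pools, with Fabp5 and Itgax as exceptions. Cidec, a lipid droplet protein, stood at 123 CPM in agonist and 110 CPM in isotype alveolar macrophages, and at 0.831 and 0 CPM in C1q macrophages. The keratin Krt19 stood at 97 CPM with the agonist and 130 with the isotype, against 0.831 and 0 CPM. Ctsk, a cathepsin that cuts collagen, stood at 904 CPM with the agonist and 663 with the isotype, against 28.7 and 59 CPM. Atp6v0d2, a subunit of the proton pump that acidifies lysosomes, stood at 644 CPM with the agonist and 749 with the isotype, against 26.2 and 45.2 CPM.

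Pparg, the transcription factor PPAR-gamma, stood at 123 CPM in agonist and 124 CPM in isotype alveolar macrophages and at 22.9 and 16.3 CPM in agonist and isotype C1q macrophages. Il18, an inflammasome-processed cytokine, stood at 199 CPM with the agonist and 198 with the isotype, against 15.8 and 10.4 CPM. Fabp4, a fatty acid-binding protein, stood at 153 CPM with the agonist and 195 with the isotype, against 10.4 and 16.6 CPM. Fabp5 and Itgax did not split the classes. Fabp5 stood at 439 CPM in agonist and 417 CPM in isotype alveolar macrophages and 589 and 570 CPM in agonist and isotype C1q macrophages. Itgax, which encodes CD11c, stood at 235 CPM in agonist and 426 CPM in isotype alveolar macrophages and 329 and 308 CPM in agonist and isotype C1q macrophages. The 19 listed alveolar macrophage genes outside the selection summed to 45500 CPM in agonist and 46900 CPM in isotype alveolar macrophages and to 3740 and 4710 CPM in agonist and isotype C1q macrophages, a sum that Chil3 dominates.

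Genes of the other macrophage class were low in turn. C1qa stood at 15.3 CPM in agonist and 41.5 CPM in isotype alveolar macrophages and at 1620 and 1610 CPM in agonist and isotype C1q macrophages. The apolipoprotein Apoe stood at 56.2 CPM with the agonist and 20.7 with the isotype, against 1960 and 1380 CPM. The MHC class II chain H2-Aa stood at 506 CPM with the agonist and 705 with the isotype, against 5800 and 5340 CPM. These class contrasts carry no test, because the cells were chosen on such genes.

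**Figure D2:**
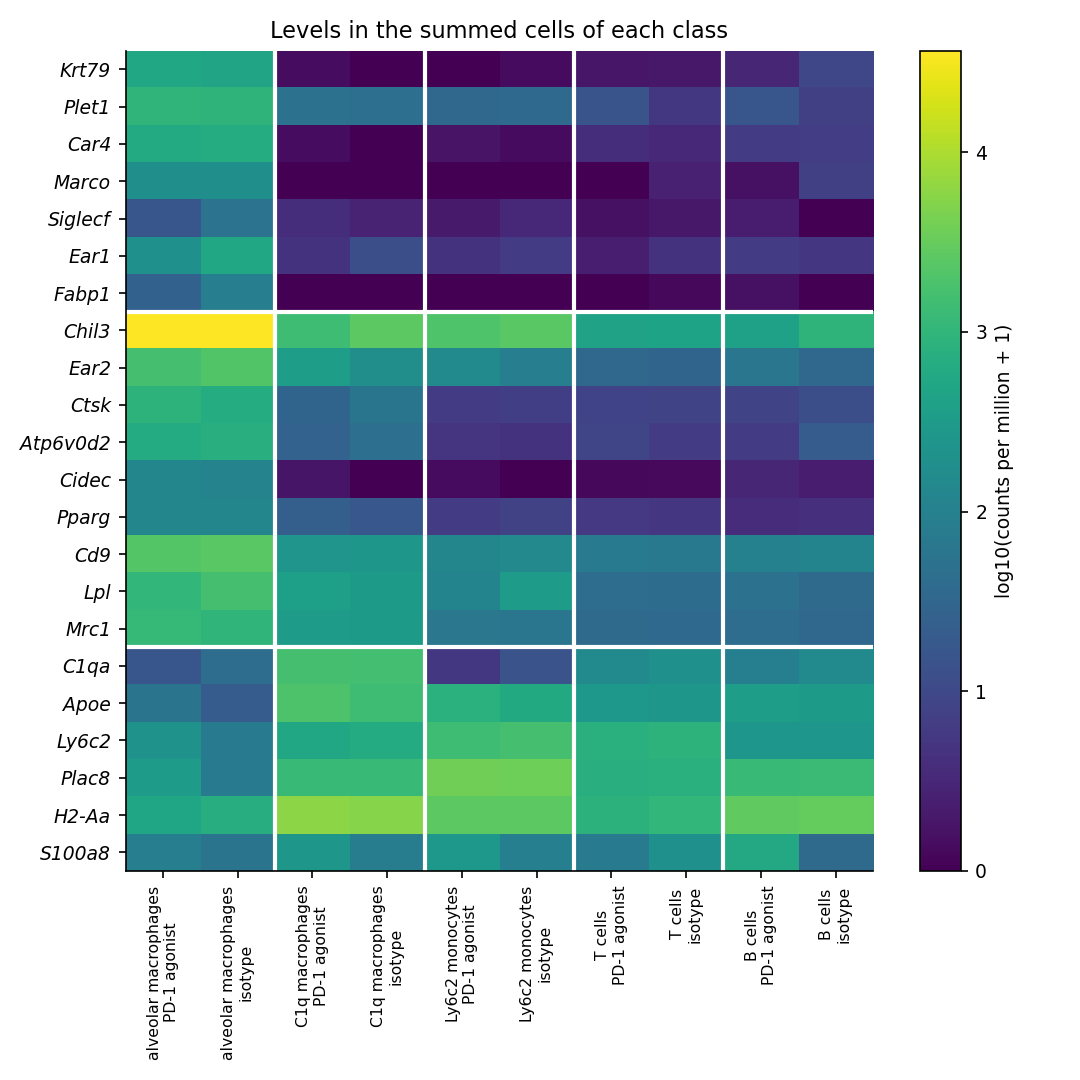
Level of 22 genes as log10(CPM + 1), by colour, in the summed cells of 5 classes, each class as agonist then isotype; the upper block holds the 7 selection markers, the middle block other alveolar macrophage genes and the lower block genes of other cells. Ctsk has 904 and 663 CPM in alveolar macrophages and 28.7 and 59 CPM in C1q macrophages.

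Markers of other cells were low, the eosinophil list less so, and 4 cells stood apart. The 15 markers of interstitial macrophages summed to 199 CPM with the agonist and 284 CPM with the isotype, with 8 and 4 of them at 0 (Folr2, Cx3cr1, Lyve1 and Cd163 in both). The 10 monocyte markers summed to 659 CPM with the agonist and 255 with the isotype, against 6850 and 6930 CPM in Ly6c2 monocytes, and Ace and Cd300e were at 0. The 10 neutrophil markers summed to 184 CPM with the agonist and 97.7 with the isotype, against 55300 and 41200 CPM in neutrophils, with Ly6g, Lcn2, Camp and Ngp at 0. S100a8, a neutrophil transcript, had a count in 61.1% of agonist and 42.4% of isotype alveolar macrophages and in 19.3% of agonist and 12.2% of isotype T cells, which are shallower. The 5 eosinophil markers summed to 133 CPM with the agonist and 104 with the isotype. They summed to 22.0 and 17.9 CPM in C1q macrophages and to 146 and 139 CPM in neutrophils. Ccr3, Prg2 and Il5ra were at 0. Ear6 was detected in 33.3% of agonist and 27.3% of isotype alveolar macrophages, against 0.103% and 0.0596% of all other cells. Siglece was detected in 44.4% and 33.3%, against 36.2% and 40.8% of neutrophils.

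Most other lists were low, the plasmacytoid and lung epithelium lists less so. The T cell list summed to 56.2 CPM with the agonist and 71.1 with the isotype, with 2 of 8 at 0, and the NK cell list to 15.3 CPM with the agonist and 20.7 with the isotype, with 4 of 7 at 0. The dendritic cell list summed to 10.2 CPM with the agonist and 14.8 with the isotype, with Flt3 at 0. The plasmacytoid list summed to 373 CPM with the agonist and 503 with the isotype, mostly Bst2, with 3 of 5 at 0, against 364 and 426 CPM in agonist and isotype C1q macrophages. The B cell list summed to 46.0 CPM with the agonist and 2.96 with the isotype, with 6 and 7 of 8 at 0, and Ighm had a count in 33.3% of agonist cells and 3.03% of isotype cells. Basophil and mast cell markers summed to 5.11 CPM with the agonist and 5.92 with the isotype, and lung epithelium markers to 102 and 101 CPM with Sftpc and Scgb1a1 at 0. Most of the epithelium sum was Cdh1, detected in 44.4% of agonist and 42.4% of isotype cells, and the list summed to 27.4 and 38.9 CPM in agonist and isotype C1q macrophages. Endothelial markers summed to 15.3 CPM with the agonist and less than 1 count with the isotype, and all 6 fibroblast and 4 red cell genes were at 0.

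Of the 4 cells apart, an agonist cell of 29491 counts held 14 counts of Ly6c2, 3 of C1qa, 70 of H2-Aa and 28 of Arg1, and another agonist cell of 16493 counts held 29 of Ly6c2. An isotype cell of 15511 counts held 11 of Ly6c2, 13 of C1qa, 98 of H2-Aa and 0 of Chil3, and another of 12817 counts held 10 of Ly6c2. For Fn1, Lpl, Cxcl10, Iigp1 and the type II interferon and complement lists, values are also given without these cells. Other results, among them the monocyte marker sums, H2-Aa, Arg1, Fcgr2b and Ccrl2, are given only with them. The doublet caller Scrublet marked 1 agonist and 2 isotype alveolar macrophages, among 9.17% and 7.894% of all cells.

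The edges of the rule can be seen in the cells with 2 and 3 markers. The 14 agonist cells with exactly 2 markers averaged 21000 CPM of Chil3 and 9 of them held it, while the 11 isotype cells averaged 1470 CPM and 3 held it. The 6 agonist and 4 isotype cells with exactly 3 markers averaged 44900 and 42100 CPM. C1qa stood at 700 CPM in agonist and 586 CPM in isotype cells with 2 markers, and at 0 CPM in agonist and 411 CPM in isotype cells with 3. Before the condition on absent genes, 37 agonist cells and 52 isotype cells held 3 markers, and 19 cells of each were left out by it, most often for Csf3r, with 14 and 13 cells.

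By the marker rule, alveolar macrophages were a smaller share of the sorted cells with the agonist. They made up 0.142% of agonist cells (exact binomial interval 0.0841% to 0.224%) and 0.28% of isotype cells (0.193% to 0.393%), with a log2 ratio of -0.98 (-1.9 to -0.11). It came to -1.38 with at least 4 markers and -1.28 (-2.38 to -0.27) with each cell thinned to 2000 counts, which left 12 of 7407 agonist cells and 30 of 7650 isotype cells. In the same pools the log2 ratio of the share was -0.35 for C1q macrophages, 0.04 for Ly6c2 monocytes, 0.2 for neutrophils, -0.48 for T cells and 0.54 for B cells. Shares within a pool add up to the whole, so a larger class lowers the rest, and the CD45+ sort sets which cells are counted.

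The size of this ratio depended on which genes chose the cells. It was -0.57 (-1.27 to 0.12) with at least 2 markers, -0.6 (-1.25 to 0.04) without the condition on absent genes and -0.84 (-1.8 to 0.06) without agonist replicate 3. With at least 2 of Krt79, Plet1, Car4 and Marco, which leaves out Ear1, it was -0.76 (-1.62 to 0.07). The part of the lower Ear1 counts in the lower share was not tested. When at least 50 counts of Chil3 per 10000 with Ear2 and Lpl detected replaced the markers, a rule added after seeing the data, 42 agonist cells and 42 isotype cells were chosen, 0.331% and 0.357%. The log2 ratio was then -0.11 (-0.76 to 0.54). All 18 agonist cells and 31 of 33 isotype cells were among them.

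The cells that this rule added, 24 with the agonist and 11 with the isotype, differed from the marker-positive cells. Their median totals were 5588 and 4317 counts, and 14 and 8 of them held none of the 7 markers. Ly6c2 was detected in 16 of 24 and 9 of 11 of them, at 934 CPM with the agonist and 1590 with the isotype, against 220 and 74 CPM in the marker-positive cells. Plac8, another monocyte transcript, stood at 3530 CPM with the agonist and 3090 with the isotype, against 317 and 71.1 CPM. The neutrophil transcript S100a8 stood at 3240 CPM in the added agonist cells, 15 of 24 with a count, and 297 CPM in the added isotype cells, against 86.8 and 56.3 CPM in marker-positive cells. C1qa stood at 435 CPM with the agonist and 338 with the isotype and Apoe at 606 CPM with the agonist and 1160 with the isotype in the added cells. Ctsk stood at 264 CPM with the agonist and 54 with the isotype, against 904 and 663 CPM, and Chil3 at 26700 and 9420 CPM. The part of depth and of monocyte, neutrophil and C1q macrophage transcripts in the difference between the rules was not tested.

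Gene by gene, most genes did not differ by 1.5-fold between treatments beyond their counting intervals. Among 1861 genes with at least 50 counts over both treatments, 107 (5.75%) were at least 1.5-fold higher with the agonist with an interval above 0, and 130 (6.99%) were lower by the same rule; such genes are called past the fold below. The median log2 ratio of all genes was -0.08, with 761 genes above 0 and 1100 below. Library totals in place of TMM factors moved the median to -0.01 and the split to 121 higher and 89 lower. Many of the 107 were near copies: 47 were pseudogenes, and 26 of the 130. The selection marker Ear1 is among the 130. The shares of 5.75% and 6.99% over all genes belong beside the calls in each list below. Of the genes that could be named by the rule stated under processing, 36 were past the fold upward and 48 downward.

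**Figure D3:**
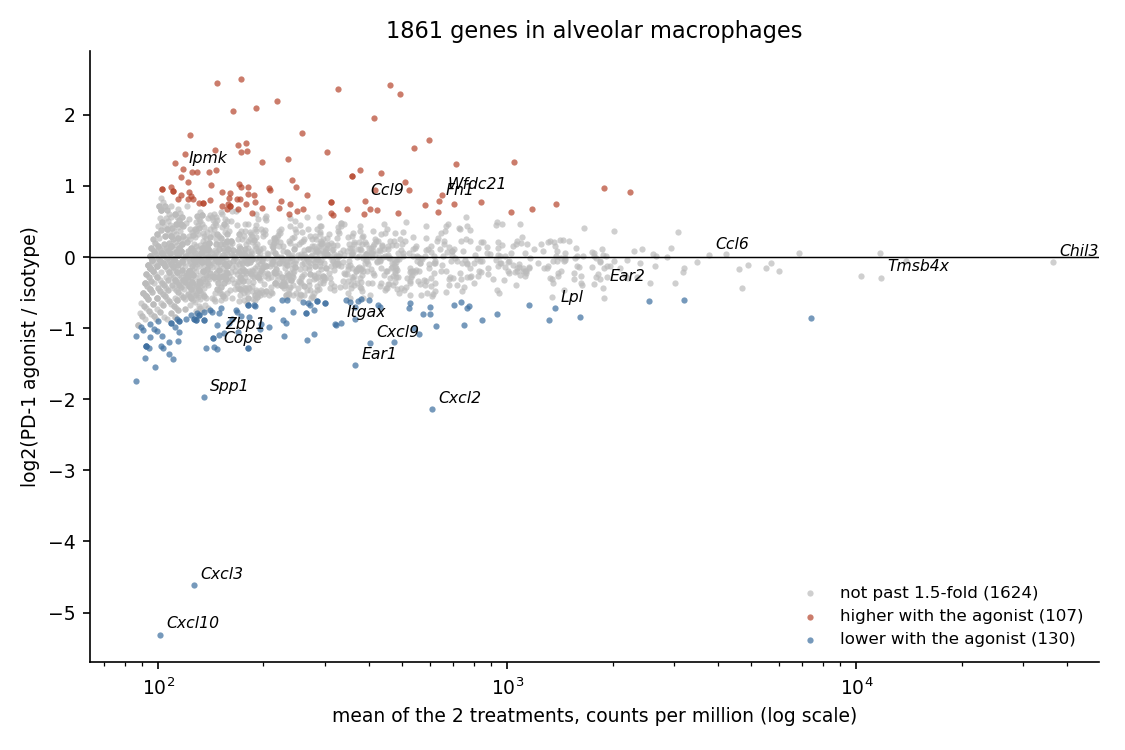
Each point is 1 of 1861 genes in the summed alveolar macrophages, with the mean CPM of both treatments on a logarithmic x axis and log2(agonist/isotype) on the y axis; red points are the 107 higher and blue points the 130 lower past the fold. Cxcl10, Cxcl3 and Cxcl2 lie lowest, at -5.31, -4.61 and -2.14, and Chil3 lies near 0 at -0.07.

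Wfdc21, a secreted protein with a whey acidic protein domain, was higher with the agonist. It had a lowest value of 0, a median of 8.02 and a highest of 23.2 counts per 10000 in agonist cells, against 0, 3.27 and 16.1 in isotype cells. In sums this gave 837 CPM with the agonist and 458 CPM with the isotype, a log2 ratio of 0.87 (0.54 to 1.2), which fell to 0.47 without agonist replicate 2. The gene lies at chr11:83746940-83752642. On library totals its ratio was 0.94 here, 3.21 in C1q macrophages, 0.51 in neutrophils, 0.45 in B cells, -0.6 in Ly6c2 monocytes and -1.89 in T cells. Only neutrophils among these other classes held much of it, at 529 CPM with the agonist and 371 with the isotype.

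Fn1, the matrix protein fibronectin that lung macrophages secrete, was also higher. It ran from 0 over 6.53 to 23.1 counts per 10000 in agonist cells, 15 of 18 with a count, and from 0 over 3.0 to 28.6 in isotype cells, 23 of 33 with a count, so the groups overlapped. The sums were 808 CPM with the agonist and 467 CPM with the isotype, a log2 ratio of 0.79 (0.46 to 1.12). It was 0.31 without agonist replicate 1, 1.19 without isotype replicate 3, 0.34 with at least 2 markers and 0.57 without the 4 cells apart. Of the 3 compared matrix genes, Spp1, the cytokine osteopontin, was lower, at 54.8 CPM with the agonist and 215 with the isotype (-1.97, -3.04 to -1.05), in 7 of 18 and 16 of 33 cells. Of its isotype counts 43.7% lay in 1 cell, and the ratio was -0.32 with each cell weighted equally and -0.8 in cells of 500 to 4000 expressed genes, both with intervals that held 0.

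The other genes named as higher were Ipmk, an inositol phosphate kinase (165 CPM with the agonist and 69.8 with the isotype, log2 ratio 1.24), Ddrgk1, a protein of the ER (165 CPM with the agonist and 78.9 with the isotype, 1.06), Ier3, an early stress gene (239 CPM with the agonist and 121 with the isotype, 0.98) and Tcirg1, a lysosomal proton pump subunit (274 CPM with the agonist and 140 with the isotype, 0.97). Pld4, a lysosomal nuclease, had 274 CPM with the agonist and 143 with the isotype (0.94), Tiparp, an ADP-ribosyltransferase, 244 CPM with the agonist and 133 with the isotype (0.87), and Ddx6, an RNA helicase, 219 CPM with the agonist and 124 with the isotype (0.82). Dab2, an endocytic adaptor, had 588 CPM with the agonist and 382 with the isotype (0.62), with medians of 5.78 counts per 10000 with the agonist and 3.22 with the isotype. Fos, an immediate early transcription factor, had 788 CPM with the agonist and 567 with the isotype and did not pass the fold (0.47; -0.03 without agonist replicate 1). Ipmk and Tcirg1 stayed past the fold whichever table was left out; the calls of Ier3 and Tiparp were lost without agonist replicate 1, of Pld4 without agonist replicate 2, of Ddrgk1 and Dab2 without agonist replicate 3, and of Ddx6 without isotype replicate 1 or 2.

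Lpl, among the leading genes of the class, was lower with the agonist. All 18 agonist cells held it, from 3.48 over a median of 11.1 to 25 counts per 10000, and 32 of 33 isotype cells did, from 0 over 14.8 to 51.5. The groups overlapped over nearly the whole agonist range. The sums were 1030 CPM with the agonist and 1700 CPM with the isotype, a log2 ratio of -0.72 (-0.96 to -0.49). Without agonist replicate 1 the ratio was -0.17, so it rests on that table, and without the 4 cells apart it was -0.5. Lpl lies at chr8:68880491-68907448. On library totals its ratio was -0.65 here, 0.31 in C1q macrophages, -1.53 in Ly6c2 monocytes and -0.81 in neutrophils.

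The other genes named as lower had varied roles. Cope, a subunit of the coat of Golgi vesicles, had 84.7 CPM with the agonist and 209 CPM with the isotype (log2 ratio -1.3, -2.16 to -0.52), in 8 of 18 and 26 of 33 cells. Rpn2, of the complex that adds sugar chains to new proteins, had 140 CPM with the agonist and 276 with the isotype (-0.98). Cox6c, a subunit of cytochrome oxidase, had 459 CPM with the agonist and 743 with the isotype (-0.7), and Ndufaf8, an assembly factor of complex I, 54.8 CPM with the agonist and 130 with the isotype (-1.25). The cell cycle gene Ccnd2 had 329 CPM with the agonist and 534 with the isotype (-0.7), the calcium-binding S100a1 194 CPM with the agonist and 337 with the isotype (-0.79), and the mitochondrial thioredoxin Txn2 74.8 CPM with the agonist and 155 with the isotype (-1.05). Spop, an adaptor of a ubiquitin ligase, had 64.8 CPM with the agonist and 149 with the isotype (-1.2), and Arglu1, a nuclear RNA-binding protein, 69.8 CPM with the agonist and 158 with the isotype (-1.18). Tmsb4x, which binds actin monomers, had 10600 CPM with the agonist and 12900 with the isotype and did not pass the fold (-0.29). Cope, Rpn2 and Arglu1 stayed past the fold whichever table was left out. The calls of S100a1 and Ndufaf8 were lost without agonist replicate 1, of Txn2 without agonist replicate 2, of Spop without either of these, of Cox6c without isotype replicate 2 and of Ccnd2 without isotype replicate 1 or 2.

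The alveolar macrophage genes outside the selection moved little as a list. Of 20 listed genes, 16 had enough counts, with a median log2 ratio of -0.17 against -0.08 over all genes; 0 were past the fold upward and Lpl and Itgax downward. Itgax had medians of 1.4 counts per 10000 with the agonist and 4.07 with the isotype and sums of 229 CPM with the agonist and 437 CPM with the isotype (-0.93, -1.44 to -0.44), with 12.75% of its 31-base words in other genes. Chil3 (-0.07), Pparg (-0.09), F7 (0.08) and Cidec (0.09) were near 0, Cd9 stood at -0.28 and Ear2 at -0.43, and Ctsk had 882 CPM with the agonist and 679 with the isotype (0.38). Of 24 transcription factors, 11 were compared with a median of -0.16. Of the 11, 1 was past the fold upward and 2 downward, where 5.75% and 6.99% of all genes were. Nfe2l2, the oxidative stress factor NRF2, was higher (209 CPM with the agonist and 130 with the isotype, 0.68), while Egr2 (89.7 CPM with the agonist and 164 with the isotype, -0.87) and the interferon-linked Irf8 (94.7 CPM with the agonist and 164 with the isotype, -0.79) were lower; Spi1, which encodes the macrophage factor PU.1, had 344 CPM with the agonist and 337 with the isotype (0.03). The 3 calls were each lost without agonist replicate 1, those of Irf8, Egr2 and Nfe2l2 also without isotype replicate 2, and those of Egr2 and Nfe2l2 also without agonist replicate 3.

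Growth factor and TGF-beta receptors gave 6 compared genes, a median of -0.13 and none past the fold. The GM-CSF receptor chains Csf2ra and Csf2rb stood at -0.13 and -0.33 and the TGF-beta receptors Tgfbr1 and Tgfbr2 at -0.14 and -0.78, the last with 16 agonist and 45 isotype counts. Integrins and adhesion genes gave 9 compared genes and a median of -0.02, with Itgax alone past the fold.

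Chemokines, the secreted signals that draw leukocytes, held the largest differences. Of 20 listed chemokines 8 had enough counts, and 1 was higher and 5 lower past the fold, with a median log2 ratio of -1.25. Over all genes 5.75% were past the fold upward and 6.99% downward. Cxcl2, Cxcl3 and Cxcl1 are ligands of the neutrophil receptor CXCR2, Ccl3 draws monocytes and other leukocytes, and Cxcl9 and Cxcl10 are interferon-induced ligands of CXCR3 on T cells. Cxcl2 had a count in 12 of 18 agonist cells and 23 of 33 isotype cells, from 0 over a median of 1.63 to 26.1 per 10000 with the agonist and from 0 over 3.38 to 66.6 with the isotype. The share of positive cells was close, at 66.7% with the agonist and 69.7% with the isotype, and the highest values were in isotype cells. The shares were 66.3% and 69.3% of C1q macrophages, 94.9% and 95.7% of neutrophils and 22.4% and 21.8% of T cells. The sums were 45 agonist counts and 326 isotype counts, or 224 CPM with the agonist and 989 with the isotype, a log2 ratio of -2.14 (-2.62 to -1.69) that lay between -2.28 and -1.75 whichever table was left out. Without the condition on absent genes it was 0.22. On library totals it was -2.07 here, -0.07 in C1q macrophages, -0.3 in Ly6c2 monocytes and -0.09 in neutrophils, where Cxcl2 reached 7800 CPM with the agonist and 8320 with the isotype; the difference between the classes was not tested.

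The remaining lower chemokines came from few cells. Cxcl3 had 2 counts in 1 agonist cell and 80 counts in 6 isotype cells, of which 72.5% lay in 1 cell (log2 ratio -4.61, -7.68 to -2.71). Ccl3 had 59.8 CPM with the agonist and 146 with the isotype (-1.28, -2.33 to -0.35), in 3 of 18 and 14 of 33 cells. Its call was lost without agonist replicate 1 or 2 or isotype replicate 2, and its ratio was 0.04 without the condition on absent genes. Cxcl9 had 244 CPM with the agonist and 564 with the isotype (-1.21, -1.69 to -0.75), in 5 and 12 cells, and 0.16 without isotype replicate 2. Cxcl10 had 1 count in 1 agonist cell and 65 counts in 4 isotype cells (-5.31, -10.63 to -2.78). The shares of cells with Cxcl10, 5.56% with the agonist and 12.1% with the isotype, lay below those of T cells, 12.6% and 14.7%. Of the isotype Cxcl10 counts 75.4% lay in 1 cell, among the 4 cells apart, and the ratio was -3.04 without those cells and -1.16 without the condition on absent genes. The top 2 cells held 72.0% of the Cxcl9 and Cxcl10 counts with the agonist and 79.7% with the isotype, and the isotype cell richest in these was also the richest in Cxcl1, Cxcl2, Cxcl3 and Ccl3 together. The list's median was 0.12 without isotype replicate 2 and -0.43 without the top cell of each gene. Ratios on library totals follow for alveolar and C1q macrophages, Ly6c2 monocytes, neutrophils, T cells and B cells, in this order. Cxcl9 stood at -1.14, -0.62, -0.52, -0.5, -0.49 and -1.81. Cxcl10 stood at -5.24, -1.09, -0.38, -0.58, -0.36 and -1.55. Cxcl3 stood at -4.54, -1.36, -3.48, 0.31, -0.19 and -0.61. Ccl3 stood at -1.21, 0.15, 0.05, -0.32, -0.57 and 0.21. The difference between the classes was not tested.

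The other 3 compared chemokines did not pass the fold downward. Ccl6 was in every cell, from 9.1 over 35.9 to 78.1 per 10000 with the agonist and from 5.63 over 26.7 to 92.5 with the isotype, and its sums were 3830 CPM with the agonist and 3750 with the isotype (0.03, -0.1 to 0.16). Ccl9 was higher, at 494 CPM with the agonist and 285 CPM with the isotype (0.79, 0.37 to 1.21), and 0.52 without agonist replicate 3. Ccl24, an eosinophil attractant, had 174 CPM in 4 agonist cells and 179 CPM in 7 isotype cells (-0.04).

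**Figure D4:**
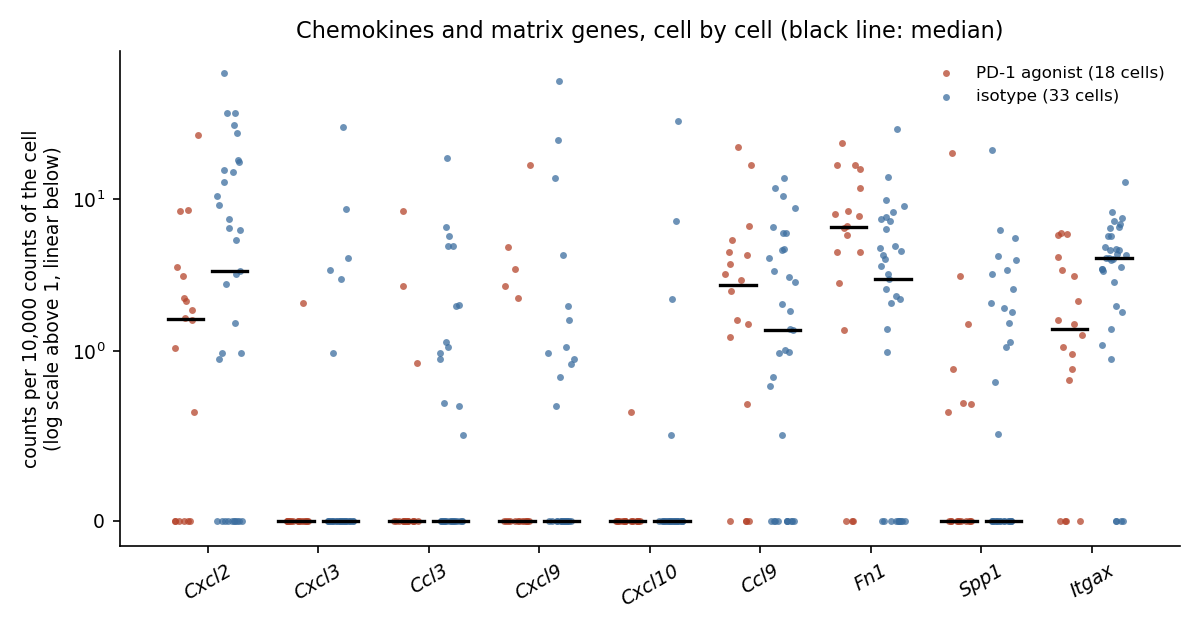
Counts per 10000 counts of the cell, logarithmic above 1 and linear below, for 6 chemokines, Fn1, Spp1 and Itgax; each point is 1 alveolar macrophage, agonist left of isotype, and black lines are medians. Cxcl2 reaches 26.1 in agonist cells and 66.6 in isotype cells, and Cxcl3 and Cxcl10 are at 0 in all but 1 agonist cell.

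The promoters of Cxcl2 and Cxcl3 are shown because these neighbouring genes had the low ratios in common. Each runs from 250 bases before to 50 bases after the RefSeq start (GRCm38.p6, plus strand), Cxcl2 at chr5:90903649-90903948 and Cxcl3 at chr5:90785851-90786150. Capitals mark matches to the kappaB motif bound by NF-kB factors (GGGA, any base, TTTCC), 97 and 73 bases before the start, and to TATAAA, the TATA box, which begins 30 bases before the start of Cxcl3.
Cxcl2: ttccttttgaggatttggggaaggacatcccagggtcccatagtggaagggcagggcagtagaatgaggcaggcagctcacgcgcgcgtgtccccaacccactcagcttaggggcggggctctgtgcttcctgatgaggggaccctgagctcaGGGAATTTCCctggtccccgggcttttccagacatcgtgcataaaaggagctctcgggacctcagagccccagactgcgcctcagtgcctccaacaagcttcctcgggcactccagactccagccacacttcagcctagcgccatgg
Cxcl3: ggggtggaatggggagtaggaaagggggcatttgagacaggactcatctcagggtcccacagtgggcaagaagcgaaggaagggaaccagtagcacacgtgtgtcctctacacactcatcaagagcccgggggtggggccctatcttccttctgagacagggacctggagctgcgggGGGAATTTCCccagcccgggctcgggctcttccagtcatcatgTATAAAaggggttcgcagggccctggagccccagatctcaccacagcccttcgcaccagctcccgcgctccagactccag

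Searched on both strands, the kappaB motif occurred in 0.411% of 32851 RefSeq promoters of this length. It occurred in 3 of 8 chemokine genes searched, Cxcl1, Cxcl2 and Cxcl3. These 8 are not the 8 compared above, because Cxcl1, with too few counts to be compared, was searched and Ccl24 was not. A gene counted when any of its promoters matched, whereas the 0.411% is a share of single promoters. The kappaB motif occurred in 0 of the 20 promoters found for the 22 selection markers and leading genes. TATAAA occurred in 13.6% of all promoters, in 3 of the 8 and in 7 of the 20. Another motif, GGAAGTG, the core bound by PU.1, occurred in 11% of all promoters, in 2 of the 8 and in 5 of the 20, among them Chil3 and Siglecf. A match of letters is a description and not a binding site.

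Other inflammatory genes were mixed, and over all genes 5.75% were past the fold upward and 6.99% downward. Of 20 NF-kB feedback genes 10 were compared, with a median of -0.32; Ier3 was higher, and Nfkb1 (94.7 CPM with the agonist and 167 with the isotype, -0.82) and the chemokine-binding receptor Ccrl2 (64.8 CPM with the agonist and 140 with the isotype, -1.11) were lower, but the call of Nfkb1 was lost without agonist replicate 1 or 2 or isotype replicate 3 and that of Ccrl2 without agonist replicate 2 or isotype replicate 1 or 2, and Ccrl2 was 0.01 in the cells chosen by Chil3, Ear2 and Lpl. The abundant members Tnfaip2 (902 CPM with the agonist and 783 with the isotype, 0.21), Zfp36 (-0.37) and Nfkbia (-0.28) did not pass. Of 21 cytokine and inflammasome genes 5 were compared, with a median of -0.06. Osm, the cytokine oncostatin M, was higher (224 CPM with the agonist and 133 with the isotype, 0.75) with 37.8% of its agonist counts in 1 cell, the inflammasome adaptor Pycard was lower (145 CPM with the agonist and 231 with the isotype, -0.67), and Il1b had 259 CPM with the agonist and 334 with the isotype (-0.36, -0.87 to 0.12). Of 17 immediate early genes 12 were compared with a median of -0.11; Ier2 was higher (145 CPM with the agonist and 75.8 with the isotype, 0.93) and Egr2 lower, and Junb had 738 CPM with the agonist and 789 with the isotype (-0.1). The calls of Osm, Pycard, Egr2 and Ier2 were each lost without agonist replicate 1 and without 1 to 3 other tables.

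A minority of the compared interferon-responsive genes were past the fold downward with the agonist. Of 25 type II interferon genes 16 were compared, with a median of -0.53 against -0.08 over all genes, 0 past the fold upward and 4 downward, where 6.99% of all genes were past it downward. Of the 16, 13 lay below 0, as did 1100 of all 1861 genes, and on library totals 11 of the 16 and 948 of the 1861 did. The 4 were Cxcl9, Cxcl10, the GTPase Iigp1 (59.8 CPM with the agonist and 161 with the isotype, -1.43) and the peptide transporter Tap1 (94.7 CPM with the agonist and 176 with the isotype, -0.89). Iigp1 was carried by 3 agonist and 9 isotype cells, and 52.8% of its isotype counts lay in the isotype cell that also held C1qa and Ly6c2. Without the 4 cells apart the list's median was -0.04 and Iigp1 stood at -0.1, and in the cells chosen by Chil3, Ear2 and Lpl the median was -0.02. Of the genes spread over more cells, Gbp2 had 299 CPM with the agonist and 379 with the isotype (-0.34), and the immunoproteasome genes Psmb8, Psmb9 and Psmb10 stood at -0.07, -0.04 and -0.48; none passed the fold. The call of Iigp1 was lost without agonist replicate 1 and that of Tap1 without agonist replicate 2 or isotype replicate 2 or 3. On library totals Iigp1 was -1.36 here, -0.54 in C1q macrophages, -1.43 in Ly6c2 monocytes and -0.84 in neutrophils. In T cells it was -0.09 and in B cells -2.67.

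Of 25 type I interferon genes 6 were compared, with a median of -0.35 that was -0.02 with at least 4 markers and 0.06 in the cells chosen by Chil3, Ear2 and Lpl. The nucleic acid sensor Zbp1 was lower (94.7 CPM with the agonist and 203 with the isotype, -1.1, -1.92 to -0.35) and stayed so whichever table was left out, but stood at -0.21 in cells of 500 to 4000 expressed genes and -0.4 in the cells chosen by Chil3, Ear2 and Lpl, with intervals that held 0; on library totals it was -1.03 here, -0.47 in C1q macrophages and -0.56 in Ly6c2 monocytes. Bst2 had 329 CPM with the agonist and 479 with the isotype (-0.54) and Ifi27l2a 808 CPM with the agonist and 956 with the isotype (-0.24). The 11 compared genes of MHC class I presentation had a median of -0.16, with only Tap1 past the fold; all 11 lay below 0 on TMM totals and 7 on library totals, against 1100 and 948 of all 1861 genes; B2m had 5200 CPM with the agonist and 5810 with the isotype (-0.16, -0.27 to -0.05). Of 9 MHC class II genes 8 were compared, with a median of -0.19 and none past the fold. This median turned to 0.42 with at least 4 markers and 0.3 in the cells chosen by Chil3, Ear2 and Lpl, and was -0.84 in cells of 500 to 4000 expressed genes. H2-Aa had 494 CPM with the agonist and 722 with the isotype (-0.55, -0.9 to -0.2), and 70.7% of its agonist counts and 41.2% of its isotype counts came from 1 cell each, both among the 4 cells apart.

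Among genes of lipid handling, Lpl and Etfa passed the fold, both lower. Of 32 genes of lipid uptake, storage and efflux 15 were compared, with a median of 0.05 against -0.08 over all genes. The cholesterol exporter Abcg1 had 917 CPM with the agonist and 831 with the isotype (0.14), the droplet coat Plin2 603 CPM with the agonist and 564 with the isotype (0.1), the lysosomal cholesterol carrier Npc2 1010 CPM with the agonist and 874 with the isotype (0.21), and the scavenger receptor Cd36 169 CPM with the agonist and 237 with the isotype (-0.48, -1.11 to 0.12). Fatty acid oxidation gave 5 compared genes and a median of -0.05, with Etfa, an electron carrier of this pathway, lower (115 CPM with the agonist and 209 with the isotype, -0.87; not past the fold without agonist replicate 1 or isotype replicate 1 or 2), and sterol and fatty acid synthesis gave 2 and a median of 0.01.

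Of 33 lysosomal genes 27 were compared, with a median of 0 and none past the fold. The abundant members Ctss (4290 CPM with the agonist and 4170 with the isotype, 0.04), Psap (3070 CPM with the agonist and 2800 with the isotype, 0.13) and Ctsd (3030 CPM with the agonist and 3380 with the isotype, -0.16) lay within a narrow range. Of 29 phagocytic and pattern recognition receptors 17 were compared, with a median of 0.07. The inhibitory Fc receptor Fcgr2b was higher (394 CPM with the agonist and 231 with the isotype, 0.77, 0.3 to 1.25), but 29.1% of its agonist counts lay in 1 of the cells apart and it was 0.31 without agonist replicate 1. The glucan receptor Clec7a had 2640 CPM with the agonist and 2570 with the isotype (0.04), Mrc1 1090 CPM with the agonist and 986 with the isotype (0.15), and the efferocytosis receptors Mertk and Axl stood at -0.01 and -0.4.

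Antioxidant and iron genes gave 16 compared genes and a median of 0.05. The ferritin light chain Ftl1 was lower (2000 CPM with the agonist and 3080 with the isotype, -0.62), while the ferritin heavy chain Fth1 had 13600 CPM with the agonist and 14100 with the isotype (-0.05). Oxidative phosphorylation gave 36 compared genes with a median of -0.24. Of these 28 lay below 0, and 27 on library totals. Past the fold were 1 of the 36 upward and 3 downward, where 5.75% and 6.99% of all genes were. Cox7c was higher (264 CPM with the agonist and 94 with the isotype, 1.49), and Cox6c, Atp5g1 (304 CPM with the agonist and 458 with the isotype, -0.59) and Atp5o (209 CPM with the agonist and 334 with the isotype, -0.67) were lower. Heat shock chaperones gave 9 compared genes and a median of -0.2, with Hspa8 (578 CPM with the agonist and 949 with the isotype, -0.72) and Hsp90aa1 (234 CPM with the agonist and 367 with the isotype, -0.65) lower. Cox7c stayed past the fold whichever table was left out. The call of Ftl1 was lost without agonist replicate 1 or isotype replicate 1 or 2, of Atp5g1 without replicate 2 of either treatment, of Atp5o without agonist replicate 1 or 2 and of Hspa8 without agonist replicate 1 or isotype replicate 2. The call of Hsp90aa1 was lost without any of 5 tables.

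Several of these genes had like ratios in other cells of the same pools. On library totals, Cox7c stood at 1.56 here, 1.43 in C1q macrophages and 1.67 in Ly6c2 monocytes. Ftl1 stood at -0.55, -0.56 and -0.52, Hspa8 at -0.65, -0.66 and -0.84, and Atp5g1 at -0.52, -0.54 and -0.65 in the same 3 classes. Of the 31-base words of Ftl1 94.88% occur in another gene, of Hspa8 61.24% and of Cox7c 29.9%, so these counts are uncertain. The part of the pool and of read assignment in these ratios was not tested.

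The smaller lists held few calls. Glycolysis gave 6 compared genes and a median of -0.19, glucocorticoid and FoxO responsive genes 4 and -0.17, the leukotriene and prostaglandin pathway 4 and 0.13, complement 3 and 0.01 (-0.49 without the 4 cells apart, 1.0 in the cells chosen by Chil3, Ear2 and Lpl), and alternative activation 4 and -0.01, with none past the fold. Matrix metalloproteinases and partners gave 3 compared genes and a median of 0.03, with Fn1 higher and Spp1 lower. DNA replication gave Pcna alone (-0.52), and no mitosis gene had 50 counts.

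**Figure D5:**
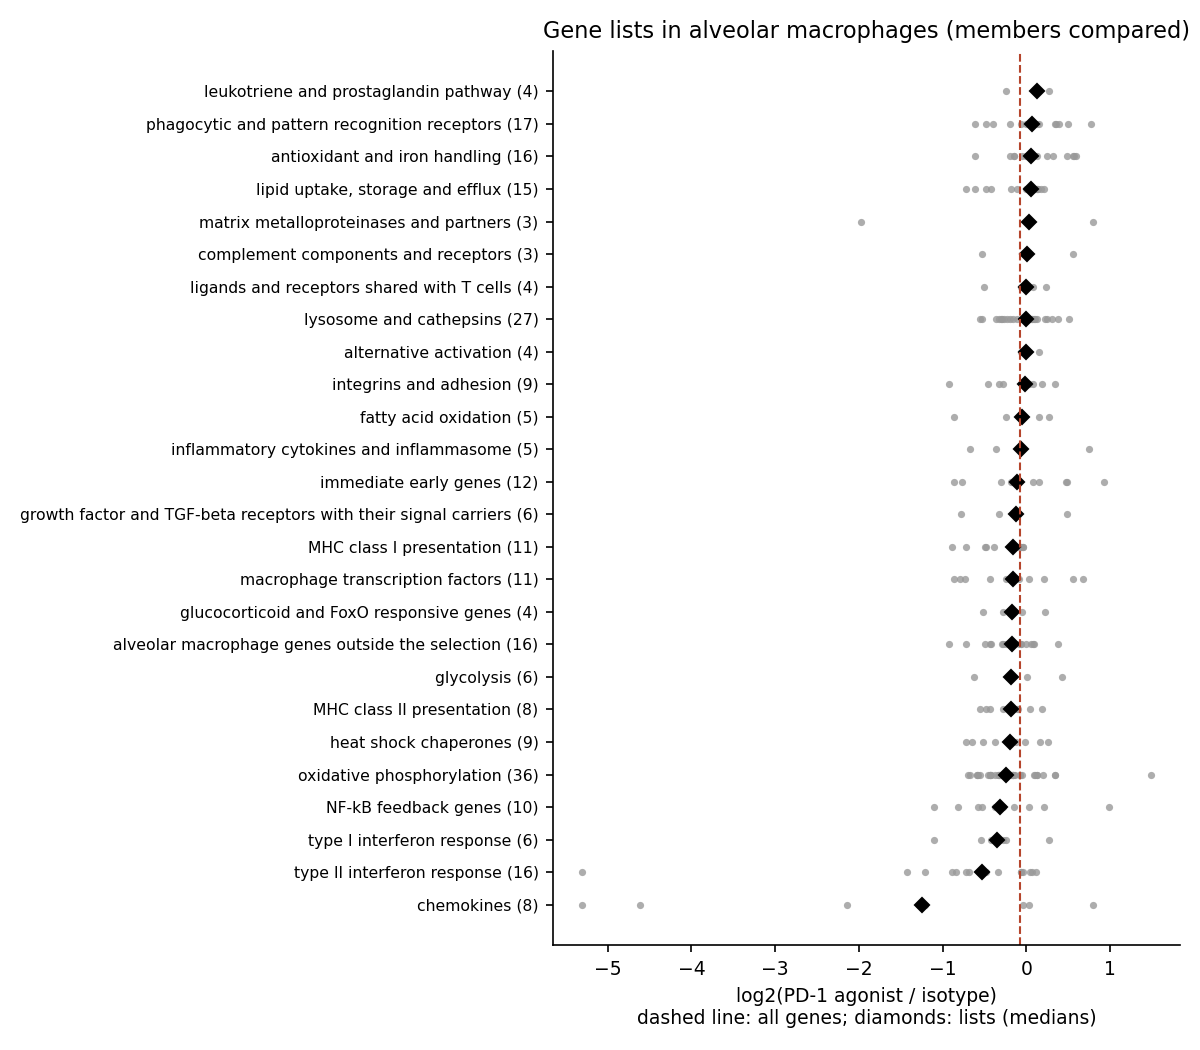
log2(agonist/isotype) of each compared member (grey points) and the median (black diamond) of the 26 lists with at least 3 compared genes, with the number of members compared in brackets; the dashed line is the median of all 1861 genes. Chemokines have the lowest median, at -1.25, and type II interferon genes the next, at -0.53.

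The targeted receptor was nearly undetected in these cells. Pdcd1, which encodes PD-1, had 0 counts in agonist cells and 1 count in isotype cells, where 3 counts would be 15.3 and 8.88 CPM, while T cells had 28.9 CPM with the agonist and 46.6 with the isotype. Reads of the humanized receptor need not align to the mouse gene, so these values limit only what the mouse gene's column holds. Its ligand gene Cd274 was detected in 12 of 18 agonist cells and 18 of 33 isotype cells, at 130 CPM with the agonist and 137 with the isotype (-0.07, -0.83 to 0.65). The 4 compared genes shared with T cells had a median of 0 and none passed the fold, among them Cd47, the signal that blocks engulfment (1150 CPM with the agonist and 980 with the isotype, 0.23), and its receptor Sirpa (713 CPM with the agonist and 673 with the isotype, 0.08).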

How the data were processed

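Lung CD45+ cells of the 6 labelled samples were profiled by 10x single-cell RNA sequencing, per the labels. The authors deposited, per the file headers, 1 table a sample with cells in rows and 20882 gene columns, of which 20459 matched the annotation. The authors deposited estimated counts per gene, made upstream of the tables with no stated normalization per the file headers, and these were 98.14% to 98.27% whole numbers. The deposited tables also give a total count, the number of expressed genes and mitochondrial and ribosomal percent per cell. Processing used Partek and the mm10 build, per the submitters' processing notes. The aligner, the counter and any filter were not given in the sources used here.

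Records run together on a line were split apart (47 records). Each barcode was kept once a treatment, from its record with the highest total, and cells needed 500 expressed genes. The members, gene lists and rules were chosen with earlier results of these data known. The planned edgeR test between separate samples was not used, because tables of a treatment share cells. Summed estimated counts, rounded to whole numbers, were compared as log2(agonist/isotype) on TMM effective totals (edgeR 4.0.16, R 4.3.3) with exact conditional 95% intervals. Genes needed 50 counts over both treatments, and past the fold means at least 1.5-fold (0.58 on the log2 scale) with an interval not holding 0. Shares have exact binomial (Clopper-Pearson) intervals (scipy 1.17.1, Python 3.11.15). The floor is 3 counts over a treatment. Levels given beside other classes use plain totals.

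The comparison classes were C1q macrophages (above), Ly6c2 monocytes (Ly6c2 and Ccr2 detected), neutrophils (Csf3r, S100a8 and S100a9), T cells (Cd3e with Cd3d or Cd3g) and B cells (at least 2 counts of Cd79a, with Cd79b). Named genes are the 12 in each direction with the interval bound farthest from 0, among protein-coding genes that are not ribosomal, histone or predicted genes, share under 10% of 31-base words with another gene and have no cell with 25% of a treatment's counts. To these are added the 3 members of each of the 29 lists with most counts and any member past the fold, the 7 selection markers and the 15 leading genes. Other genes named in the text were chosen after their values were seen. Scripts were tested on simulated counts with counting error alone, without variation between cells. Doublets were called with Scrublet (scanpy 1.11.5, expected rate 0.1, threshold 0.25) and left in. Alternatives were another number of markers, a cap of 4000 genes, other scalings (library totals, DESeq2 1.42.0 size factors), other count minimums, each table left out, each barcode's first table, equal weight for each cell and each gene without its top cell. Dropping the condition on absent genes, dropping the 4 cells apart, at least 2 of Krt79, Plet1, Car4 and Marco, and selection by Chil3, Ear2 and Lpl were chosen after seeing the data.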

Additional observations from a re-analysis of the deposited data

Results flagged for a closer look

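Of 55 genes looked at, for 7 the difference between treatments in alveolar macrophages and that in C1q macrophages of the same pools had opposite signs, with counting intervals that excluded 0 on both sides; the difference between the classes was not tested. All values are log2 ratios of agonist over isotype on library totals, with 18 and 33 alveolar macrophages and 380 and 449 C1q macrophages. Fn1, fibronectin, stood at 0.86 in alveolar macrophages and -0.3 in C1q macrophages, and Fos at 0.54 and -0.22. Lpl, lipoprotein lipase, stood at -0.65 and 0.31, and Tmsb4x, the actin-binding thymosin beta 4, at -0.22 and 0.14. Ear2 stood at -0.36 in alveolar and 0.93 in C1q macrophages, and its counts are uncertain because 60.52% of its 31-base words occur in another gene. H2-Aa, an MHC class II chain, stood at -0.48 in alveolar and 0.12 in C1q macrophages, and 70.7% of its agonist counts lay in 1 cell. Arg1, arginase, stood at 2.27 and -0.34, and all of its 28 agonist counts in alveolar macrophages lay in 1 cell. Without agonist replicate 1 the alveolar macrophage ratios of Fn1 and Lpl shrank to 0.31 and -0.17 on TMM totals, and that of Fos changed sign to -0.03, which is the sign it has in C1q macrophages.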

How the results depend on the processing

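No paired analysis was possible because the tables of a treatment share cells, so that each treatment is 1 sample and the replicate numbers pair nothing. Of the results that answer a comparison, 92 values under the alternatives stayed within the limits set and 9 moved; of the others 1566 stayed, 71 moved and 5 reversed. With main counts of 107 higher and 130 lower, the counts were 52 higher under a cap of 4000 genes, 196 higher and 223 lower with no condition on absent genes, 224 higher in the cells chosen by Chil3, Ear2 and Lpl, 24 higher and 33 lower with a minimum of 200 counts and 326 higher and 283 lower with no filter. Library totals gave 121 and 89. Of the 107 higher and 130 lower main calls, 38 and 62 were kept under the cap of 4000 genes. Without agonist replicate 1, 45 and 76 were kept, with no condition on absent genes 72 and 76. In the cells chosen by Chil3, Ear2 and Lpl, 90 and 76 were kept. Leaving out 1 table gave 56 (without agonist replicate 1) to 108 higher and 104 to 163 lower, a median of all genes of -0.17 to -0.0458 and a log2 ratio of the share of -1.18 to -0.84. The median of all genes was -0.0789 with TMM factors, -0.00888 with library totals and -0.0586 with DESeq2 size factors. Among genes past the fold, the ratios that reversed were Cxcl9 (-1.9 to 0.16 over the tables left out, the highest without isotype replicate 2, and 0.37 with each barcode's first table), Ccl3 (0.04) and Cxcl2 (0.22) with no condition on absent genes, and Ccrl2 (0.01) in the cells chosen by Chil3, Ear2 and Lpl; Pycard fell to 0 with each cell weighted equally, and Fos, not past the fold, turned to -0.03 without agonist replicate 1; the cause was not tested. The chemokine median was -0.23 with each barcode's first table, 0.04 with no condition on absent genes, -0.45 in the cells chosen by Chil3, Ear2 and Lpl and -0.12 with no filter. Depth limits these values: 195794 counts in 18 agonist cells and 337754 in 33 isotype cells put the floor at 15.3 and 8.88 CPM.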

Other observations

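A few alveolar macrophages carried transcripts of dividing cells. The 23 mitosis genes had 101 counts in the agonist cells and 114 counts in the isotype cells, and 3 of 18 and 6 of 33 cells held at least 5 of these genes. The median was 0.692 counts per 10000 with the agonist and 0.85 with the isotype, and the highest cells reached 37.6 and 23.7. The cell richest in them held 35.6% of the agonist counts and 21.1% of the isotype counts. The 19 DNA replication genes had 40 and 112 counts, with at least 5 genes in 1 and 4 cells.

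Arg1, the arginase of alternatively activated macrophages, was found in 1 agonist cell with 28 counts and in 3 isotype cells with at most 8 counts. Cxcl1 was found in 2 and 6 cells, with at most 3 and 13 counts. The siglec gene Siglece was found in 8 agonist cells and 11 isotype cells, and Ear6, another ribonuclease, in 6 and 9 cells.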
